A study of Sus scrofa with 6 samples.

Results

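Marker genes of macrophages and other myeloid cells, of lymphocytes and of mast cells were read in porcine aortic valve leaflets, the thin flaps that open and close with each heartbeat. The member list held 54 genes, 26 myeloid, 19 lymphoid and 9 of mast cells. A gene was measured where a probe set (a group of short probes for 1 transcript) carried its symbol alone in the annotation of the array, or its name in the study's list of genes called between the sexes. This gave 34 genes with 47 of the 23999 probe sets other than controls, that is 20 myeloid, 11 lymphoid and 3 mast cell genes, and the probe set with the highest mean over the 6 arrays stood for each gene. The annotation named 33 of these genes. FCER1A was named by the study's list alone, which holds only probe sets that were called on these same arrays, so its difference between the sexes is not independent evidence.

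The study asked how gene expression in healthy valves differs between the sexes. Leaflets came from 3 female and 3 castrated male pigs of mixed breed, 5 months old and weighing about 90 kg, with 1 pig per array. The labels name no agent given to either sex. Within 5 hours of death the leaflets were removed and the endothelium was scraped off both sexes with a scalpel, and 400 ng of total RNA of the whole scraped leaflet was labeled for an Affymetrix Porcine Genome Array. Because the males were castrated, the comparison is of castrated males with females, and sex cannot be told apart from castration. A leaflet value is bulk RNA, in which fewer cells of a type and less RNA per cell cannot be told apart.

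Expression is given on the log2 scale of the robust multi-array average (RMA) as deposited, so a difference of 1 is 2-fold. RMA values carry no call of presence, and the 25th percentile of each array (5.47 to 5.59) was used as a low line, with the array median at 7.33 to 7.38. As examples of what a probe set reads without its transcript, the Y-linked DDX3Y, EIF1AY and UTY lay at 3.04 to 4.42 on the female arrays. On the male arrays they lay at 6.48 to 11.74. DDX3Y and UTY were named by the study's list of called genes alone, so their low female values are not independent of that choice. EIF1AY, which the annotation named, lay at 3.04 to 3.47 on the female arrays. The correlation between arrays over all probe sets was 0.987 to 0.993 within a sex and 0.972 to 0.987 between the sexes. The 3 arrays of each sex limit the precision, and an exact permutation test of 3 against 3 cannot go below p = 0.1. No sequence is printed, since the probe sequences were not analysed here.

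Heart valves hold resident macrophages, which clear debris and dying cells and carry scavenger receptors, Fc receptors and complement C1q. T lymphocytes recognize antigen through a receptor complex whose CD3 chains pass the signal to the kinase LCK. Mast cells are tissue cells armed with IgE on a high-affinity receptor built of an alpha chain (FCER1A), a beta chain (MS4A2) and gamma chains (FCER1G), and they depend on the receptor tyrosine kinase KIT.

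Most macrophage genes were well above the low line in both sexes, and more lymphocyte genes were near or under it. Of the 20 myeloid genes, 18 were above the 25th percentile on all 6 arrays (90.0%) and 14 were above the median on all of them, against 71.0% and 45.2% of all probe sets. Of the 11 lymphoid genes, 5 were above the 25th percentile on all arrays (45.5%) and 0 were above the median on all. With the lowest probe set per gene, 16 of the 20 myeloid and 4 of the 11 lymphoid genes were above the 25th percentile on all arrays. The genes were read at their highest probe sets, while all probe sets include 13732 without a symbol, so these shares are of unlike sets. KIT and MS4A2 cleared the 25th percentile on all 6 arrays and FCER1A on 2, and none of the 3 was above the median on all. The label of the set is thus borne out on these arrays for macrophages through CD163, C1q and the Fc receptors, and only in part for lymphocytes. CD68, one of the 3 markers given for the set, had no named probe set and was not measured, nor were the myeloid CSF1R, LYZ, C1QB, MSR1 and CYBB. Among lymphoid genes, CD5, MS4A1, CD79A, IGHM, CD52, GZMA, GZMB and NKG7 were not measured. For mast cells the defining proteases were missing too, since CPA3, TPSB2, TPSAB1 and CMA1 had no named probe set, nor had HPGDS and HDC.

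**Figure D1:**
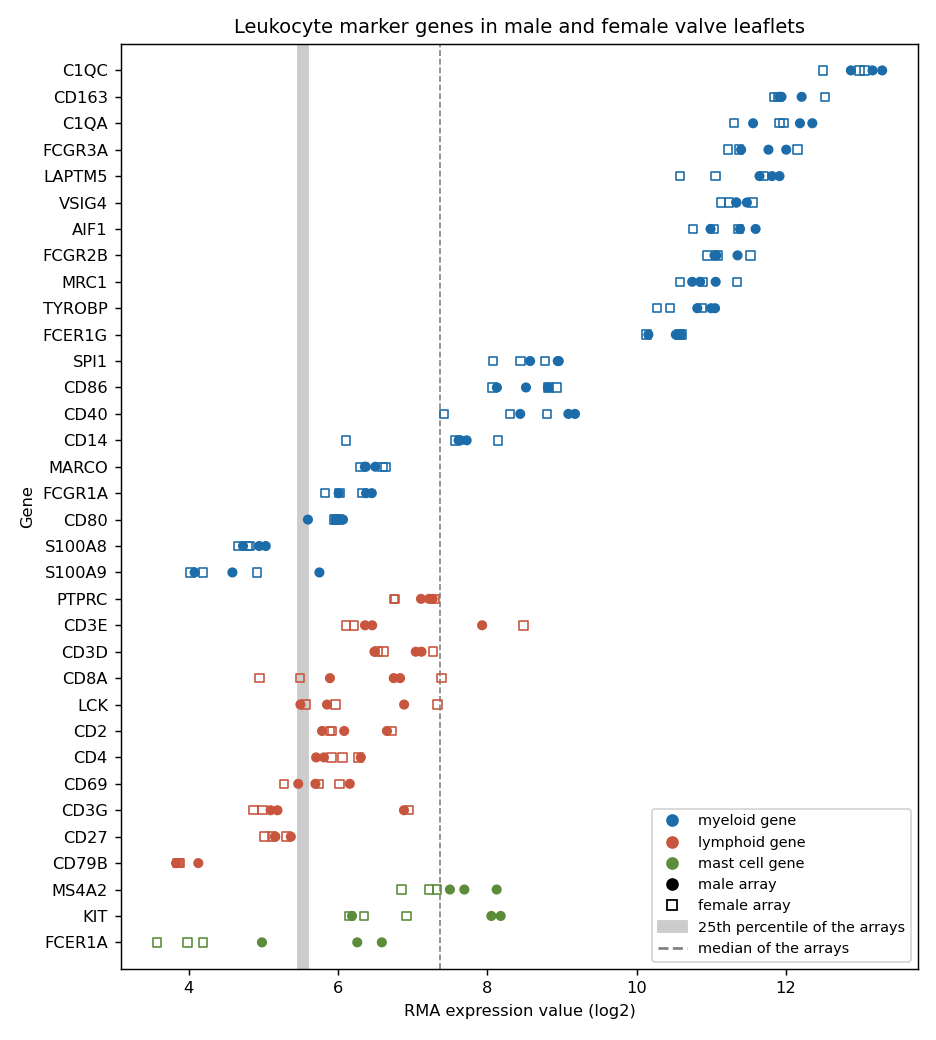
RMA expression value (log2) of the 34 measured genes on each of the 3 male (filled circles) and 3 female (open squares) arrays, colored by class, with the range of the arrays' 25th percentiles as a gray band and the median as a dashed line. Of the 20 myeloid genes, 14 lie right of the median on every array, while CD27 and CD79B lie left of the band on every array. Positions of different genes along the axis are not comparable as amounts of transcript.

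C1QC, a chain of the complement recognition protein C1q that tissue macrophages make, had log2 values of 13.16, 13.29 and 12.87 on male arrays 1, 2 and 3 and of 13.05, 12.98 and 12.50 on the female arrays. Its companion chain C1QA was at 12.19, 12.35 and 11.56 in males and at 11.91, 11.97 and 11.31 in females. CD163, the hemoglobin scavenger receptor and a marker of resident macrophages, was at 11.91, 12.21 and 11.94 in males and at 12.53, 11.84 and 11.90 in females. The sexes overlapped at all 3 genes, with the highest CD163 value on female array 1. The log2 difference of male minus female was 0.26 at C1QC (standard error 0.18), 0.31 at C1QA (0.26) and -0.07 at CD163 (0.20), and none passed (adjusted p = 0.898 from limma over all probe sets for CD163).

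A second probe set of CD163 read otherwise. It was at 8.49, 9.32 and 9.04 in males and at 10.13, 9.80 and 9.51 in females, so that every female array was above every male array. The log2 difference was -0.86 (standard error 0.25, adjusted p = 0.177 from limma over all probe sets), which did not pass. The 2 probe sets thus disagree on whether the sexes overlap, and the reason was not tested.

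Other receptors of macrophages were also above the median on every array at the probe sets used. The mannose receptor MRC1 ranged from 10.58 to 11.35, the complement receptor VSIG4 from 11.13 to 11.55, the Fc receptors FCGR2B and FCGR3A from 10.95 to 11.52 and from 11.22 to 12.15, and the calcium-binding AIF1, a general macrophage marker, from 10.75 to 11.59. TYROBP and FCER1G, adaptors that carry signals for many myeloid receptors, lay at 10.27 to 11.05 and 10.13 to 10.60. SPI1, the transcription factor PU.1 that directs myeloid development, lay at 8.07 to 8.96, and the costimulatory ligand CD86 at 8.07 to 8.93. Below the median on some or all arrays were the endotoxin coreceptor CD14 (6.11 to 8.14), the scavenger receptor MARCO (6.30 to 6.63), the high-affinity IgG receptor FCGR1A (5.83 to 6.45) and the costimulatory ligand CD80 (5.60 to 6.07). Second probe sets of CD80 (4.34 to 5.14) and MARCO (4.90 to 5.21) stayed under the 25th percentile on every array, so the side of the line depends on the probe set for both genes. Of the 2 further probe sets of VSIG4, 1 had the opposite sign between the sexes (-0.09, against 0.08), and neither passed. The other of these reached down to 7.16, and a second probe set of FCGR3A (6.30 to 6.89) was under the median on every array.

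The neutrophil and monocyte alarmins were the exceptions among myeloid genes. S100A8 was under the 25th percentile on all 6 arrays, at 4.66 to 5.03. Its partner S100A9 was at 4.58, 5.75 and 4.08 in males and at 4.02, 4.91 and 4.19 in females, over the line on male array 2 alone. The difference of S100A9 was 0.43 (standard error 0.43, adjusted p = 0.664 from limma over all probe sets), smaller than the spread of the male arrays (SD 0.86, n = 3).

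No myeloid gene was called between the sexes. In limma over all probe sets a call needed an adjusted p under 0.05 and at least 2-fold, which 0.304% of all probe sets met and 0 of the 20 myeloid genes did. The study's methods name a filter on the coefficient of variation (CV, the SD over the mean) before the test, without the share of probe sets kept, and describe it as leaving out values that were not alike between replicates. The filter used here keeps the 10% of highest CV. With it 183 of the 2412 tested probe sets were called (7.59%), and 0 of the 3 myeloid genes kept (CD14, CD40 and S100A9). The number of calls equals the number of genes that the study called, and whether the filters are the same was not tested. The mean was higher in males at 13 of the 20 genes, where it was at 49.1% of all probe sets, and the median log2 difference was 0.18, against -0.005 over all probe sets. An unadjusted p under 0.05 was reached by LAPTM5 and TYROBP, 2 of 20, a share of 16.9% over all probe sets. The sexes were separate at 0 of the 20 genes and at 22.4% of all probe sets.

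CD40, the costimulatory receptor through which T cells activate macrophages and B cells, had the largest myeloid difference. It was at 9.17, 9.08 and 8.44 in males and at 8.30, 8.80 and 7.42 in females, a difference of 0.73 (standard error 0.36, adjusted p = 0.357 from limma over all probe sets). Male array 3 lay below female array 2, so the sexes overlapped. Further probe sets of CD40 had differences of 0.81 and 1.03 (adjusted p = 0.271 and 0.231 in the same test), which did not pass either. The lysosomal membrane protein LAPTM5, found across leukocytes, was at 11.91, 11.81 and 11.65 in males and at 11.71, 11.06 and 10.58 in females, a difference of 0.68 (standard error 0.27, adjusted p = 0.268). Its second probe set was at 7.29, 7.04 and 6.81 in males and at 6.35, 6.14 and 6.09 in females, where every male array was above every female array (0.86, standard error 0.15, adjusted p = 0.0757 from limma over all probe sets and 0.101 with the CV filter). TYROBP differed by 0.42 (standard error 0.17, adjusted p = 0.271 from limma over all probe sets).

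Female array 3 was the lowest of the 6 for 13 of the 20 myeloid genes (65.0%), where it was the lowest for 17.9% of all probe sets. It was also the lowest for 10 of 26 other myeloid genes (38.5%) and for 10 of 19 endothelial genes (52.6%), whose median deviation there was -0.73, and their part in the myeloid values was not tested. Male array 2 was above the 6-array mean for all 20. The median deviation of the myeloid genes from their own means was 0.26 on male array 2 and -0.42 on female array 3. Without female array 3, the median difference of the class went from 0.18 to 0.04, and without male array 2 to 0.055. It went the other way without male array 3 (0.33) and without female array 1 (0.31), and was 0.13 without male array 1 and 0.10 without female array 2.

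**Figure D2:**
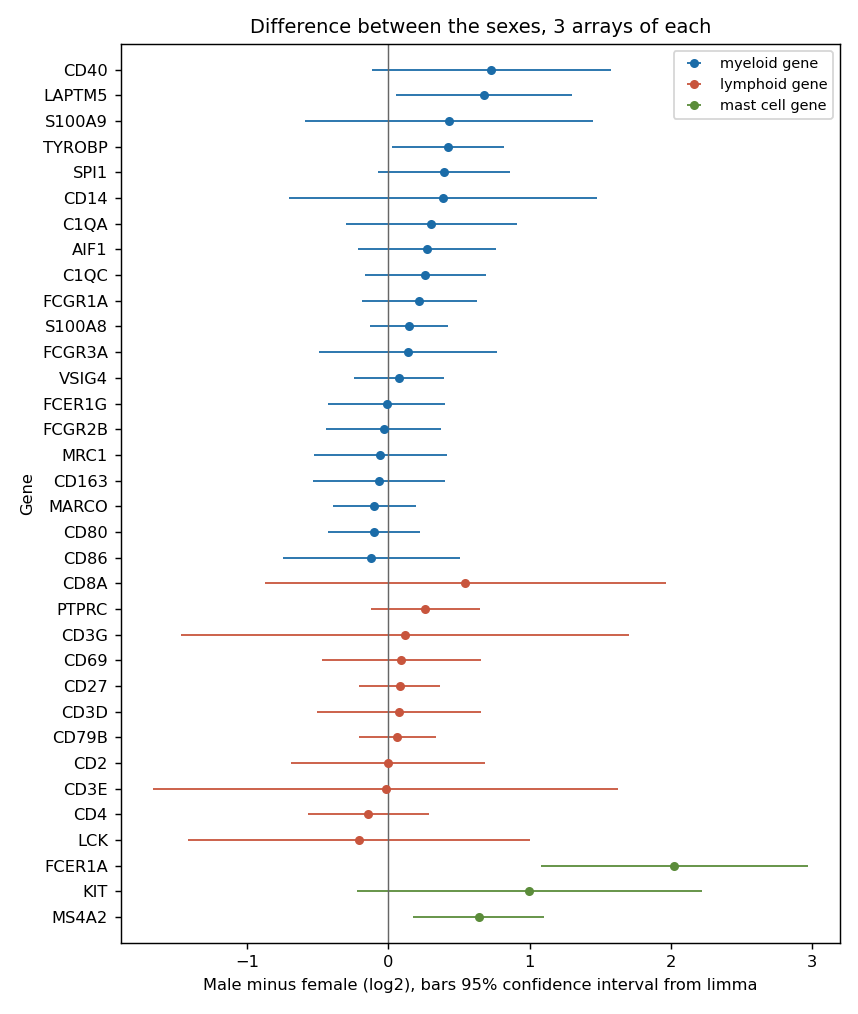
Difference of male minus female (log2) of the 34 measured genes, sorted within each class, with the 95% confidence interval from limma over all probe sets (not adjusted for the number of genes) as bars. The intervals of LAPTM5, TYROBP, FCER1A and MS4A2 do not reach 0, and those of CD3E, CD3G, CD8A and LCK are the widest of the lymphoid genes.

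Among lymphoid genes, PTPRC (CD45, the phosphatase on the surface of all leukocytes) was at 7.22, 7.27 and 7.11 in males and at 7.30, 6.75 and 6.76 in females. CD3E, the epsilon chain of the T cell receptor complex and the marker given for T cells, was at 6.46, 7.93 and 6.36 in males and at 8.48, 6.11 and 6.21 in females. CD3D, the delta chain, was at 7.04, 7.12 and 6.49 in males and at 7.27, 6.61 and 6.53 in females. All 3 were above the 25th percentile on every array, as were the adhesion receptor CD2 (5.78 to 6.71) and the helper coreceptor CD4 (5.71 to 6.30), although a second probe set of CD4 was under it on every array (3.68 to 3.87). CD4 is also made by some macrophages of several species, and PTPRC by all leukocytes, so that CD2, CD3D and CD3E are the T cell genes of this group. CD27, a costimulatory receptor of T and B cells, was under the line on every array (5.01 to 5.37), and so was CD79B, a chain of the B cell receptor (3.83 to 4.13). With MS4A1, CD79A and IGHM not measured, CD79B was the sole B cell gene of the member list with a value.

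The other 4 lymphoid genes were over the line on some arrays. CD8A, the coreceptor of cytotoxic T cells, was at 5.89, 6.83 and 6.75 in males and at 7.39, 5.49 and 4.95 in females. LCK, the kinase that starts T cell receptor signaling, was at 5.85, 6.88 and 5.49 in males and at 7.33, 5.96 and 5.56 in females, while a second LCK probe set stayed under the line on every array (5.07 to 5.36) and differed by 0.10 between the sexes, opposite in sign to the first. CD3G, the gamma chain, was at 5.19, 6.88 and 5.10 in males and at 6.95, 4.87 and 4.99 in females. It was thus over the line on male array 2 and female array 1 alone. CD69, an early activation antigen, ranged from 5.28 to 6.16 and was over the line on 4 arrays.

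These genes differed widely between animals of the same sex. Female array 1 was the highest and male array 2 the second at each of CD2, CD3D, CD3E, CD3G, CD8A and LCK, a group of 6 T cell genes put together after their values were seen, so this is a description without a test. The step from the second to the third array was 1.70 at CD3G, 1.47 at CD3E, 0.92 at LCK and 0.57 at CD2, and small at CD8A (0.09) and CD3D (0.08). At CD8A, male array 3 (6.75) was close behind male array 2 (6.83). The same pair of arrays was on top for 9 of the 11 lymphoid genes (81.8%), 6 of the 20 myeloid genes, 0 of the 3 mast cell genes and 5.66% of all probe sets. The genes share the same 6 arrays, so their likeness is no count of independent events.

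**Figure D3:**
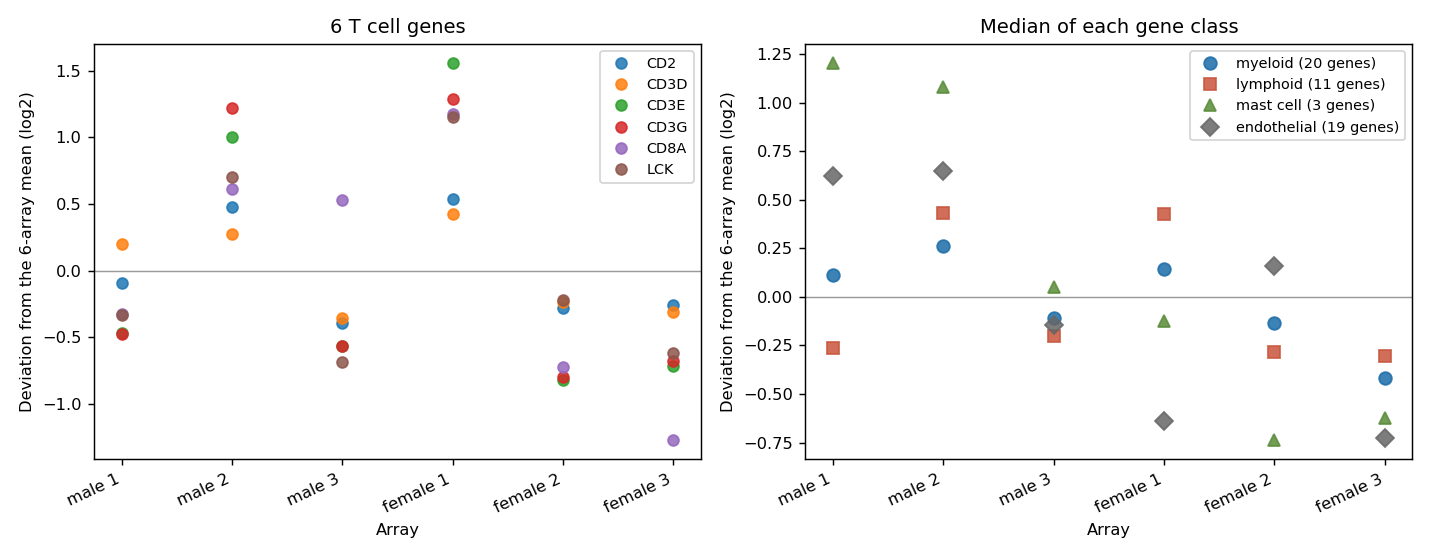
Left, deviation of 6 T cell genes from their own 6-array means (log2) on each array, and right, the median deviation of the myeloid, lymphoid, mast cell and endothelial genes. Female array 1 and male array 2 hold the highest values of the T cell genes, whereas the mast cell median is highest on male arrays 1 and 2 (1.21 and 1.08), where the endothelial median is highest too (0.62 and 0.65).

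The spread within a sex was correspondingly wide. The pooled within-sex SD of CD3E was larger than that of 99.8% of all probe sets, that of CD3G than 99.7%, that of CD8A than 99.6% and that of LCK than 99.2%. The median within-sex SD was 0.376 over the lymphoid genes, 0.291 over the myeloid genes and 0.168 over all probe sets. No lymphoid gene was called in limma over all probe sets, which called 0.304% of all probe sets. The smallest adjusted p of the 11 in that test was 0.465, at PTPRC (difference 0.26, standard error 0.16). An unadjusted p under 0.05 was reached by 0 of them and by 16.9% of all probe sets. With the CV filter, 0 of the 5 lymphoid genes kept (CD2, CD3E, CD3G, CD8A and LCK) were called, against 7.59% of all kept probe sets. The mean was higher in males at 7 and in females at 4, with a median difference of 0.08.

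The largest lymphoid differences had wide intervals. CD8A differed by 0.55 with a 95% confidence interval of -0.88 to 1.97 (adjusted p = 0.695 from limma over all probe sets) and LCK by -0.21 with one of -1.42 to 1.00 (adjusted p = 0.876). The difference of CD3E was -0.02, with an interval of -1.66 to 1.63 (adjusted p = 0.993 in the same test). A difference of 2-fold in either direction is inside the intervals of CD3E, CD3G and LCK, so it was not detectable with 3 arrays of each sex and is not shown to be absent.

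Each of the 3 mast cell genes was on average higher in males, by a median of 1.00, but FCER1A entered the class through the list of called genes, and the annotation alone left KIT and MS4A2 with a median of 0.82. FCER1A was the 1 gene of the 34 that was called, in 1 of the tests. FCER1A, the alpha chain that binds IgE, was at 6.58, 6.26 and 4.98 in males and at 3.57, 4.19 and 3.98 in females. Every male array was above every female array. Male arrays 1 and 2 were over the 25th percentile, while male array 3 and the 3 female arrays were under it. The female values lay in the low range in which the Y-linked probe sets read on female arrays, so that the size of the difference depends on the background. Of those probe sets, DDX3Y and UTY were named by the same list of called genes as FCER1A. The log2 difference was 2.02 (standard error 0.40), which is 4.07-fold, with means of 5.94 ± 0.85 (SD, n = 3) and 3.91 ± 0.32. FCER1A rose in males in limma with the CV filter (adjusted p = 0.0237), but not over all probe sets (adjusted p = 0.103). The filter favors it, since a difference between the sexes adds to the CV over all arrays, and its CV of 25.3% was the highest of the 34 genes. The call with the CV filter was lost without male array 1 (1.70, adjusted p = 0.0818 from limma) and without female array 1 (1.85, adjusted p = 0.0562), and without male array 3 it passed in both tests (2.51, adjusted p = 0.0123 over all probe sets). Over the 34 genes these counts were near or under those of the array as a whole, with 1 of the 10 kept by the CV filter called (7.59% of all kept), 4 of 34 at an unadjusted p under 0.05 (16.9% of all) and 2 of 34, FCER1A and MS4A2, with separate sexes (22.4% of all).

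MS4A2, the beta chain that amplifies the signal of the IgE receptor, was at 7.50, 7.69 and 8.12 in males and at 7.33, 7.22 and 6.85 in females. Every male array was again above every female array, as at 11.1% of all probe sets, while the reverse held at 11.4%. Its difference was 0.64 (standard error 0.20, adjusted p = 0.194 from limma over all probe sets). MS4A2 was not kept by the CV filter at this probe set, since its CV of 5.84% was under the limit of 6.50%, whereas CD2 was kept just inside it at 6.58%. A second probe set of MS4A2 was at 6.08, 6.92 and 6.91 in males and at 6.51, 5.91 and 6.15 in females, where male array 1 lay below 2 female arrays. Its difference of 0.45 did not pass (standard error 0.26, adjusted p = 0.431 from limma over all probe sets). The CV filter kept this second probe set (CV 6.74%), and it did not pass there either (adjusted p = 0.404 from limma). Male array 3 was the highest for MS4A2 and the lowest male for FCER1A, so the chains did not follow 1 order of the male arrays.

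FCER1G, the gamma chain, is shared with IgG receptors of macrophages and was counted as myeloid. It was at 10.53, 10.59 and 10.16 in males and at 10.58, 10.60 and 10.13 in females, a difference of -0.01 (standard error 0.18, 95% confidence interval -0.43 to 0.40, adjusted p = 0.982 from limma over all probe sets). Its sexes lay on top of each other, unlike those of the alpha chain. Whether the chains differ from each other in their sex difference was not tested.

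KIT, the receptor for stem cell factor, was at 8.18, 8.05 and 6.19 in males and at 6.92, 6.15 and 6.35 in females. Male arrays 1 and 2 were above every female array, and male array 3 was among the females. The difference of 1.00 (standard error 0.52) did not pass over all probe sets (adjusted p = 0.380 from limma) or with the CV filter (adjusted p = 0.195 from limma). Without male array 3 the difference was 1.64 and KIT was called in both tests (adjusted p = 0.0386 over all probe sets from limma), and without that array 285 probe sets of the whole array were called in place of 73. KIT is not particular to mast cells, and which cells of the leaflet carried KIT, FCER1A or MS4A2 cannot be read from bulk RNA.

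**Figure D4:**
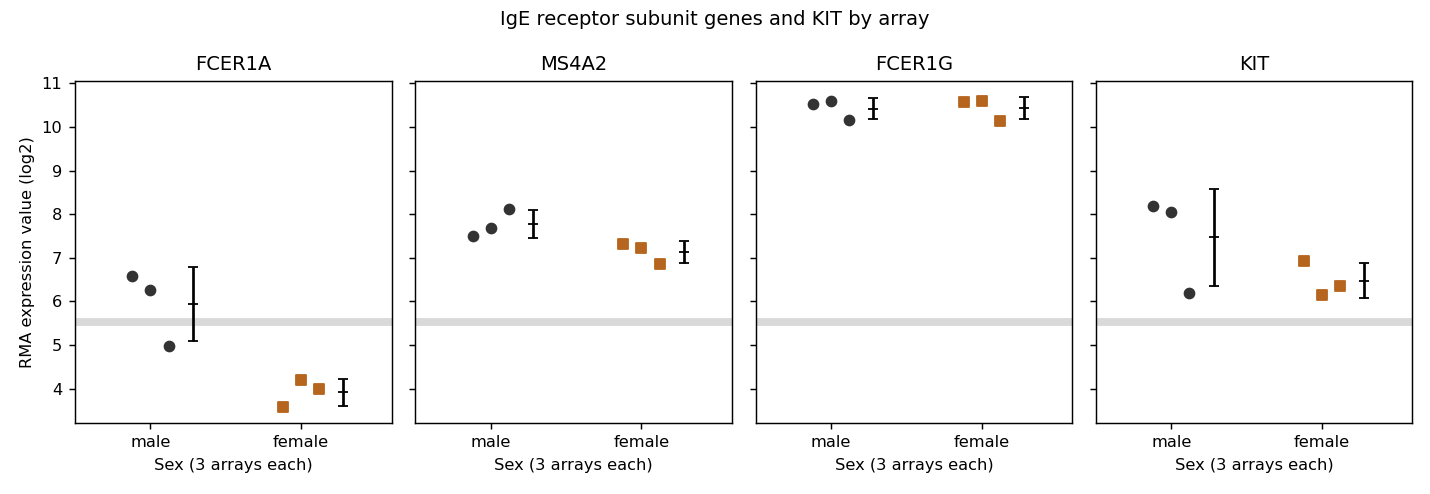
RMA expression value (log2) of the IgE receptor chains FCER1A, MS4A2 and FCER1G and of KIT by array (circles male, squares female, 3 of each). Bars give the mean and SD (n = 3), and the gray band the range of the arrays' 25th percentiles. FCER1A and MS4A2 lie higher on every male array, FCER1G lies at the same height in both sexes, and KIT is high on male arrays 1 and 2 alone.

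Endothelial genes and the mast cell genes had their highest medians on the same arrays, male 1 and 2, but their medians differed in order on the female arrays. Of 19 measured endothelial genes, 15 were on average higher in males and the median difference was 0.70. Limma over all probe sets gave 8 of them an unadjusted p under 0.05 (16.9% of all probe sets). Every male array was higher at 6 of them (11.1% of all probe sets). ICAM2 (1.70) and ESAM (1.59), adhesion proteins of endothelial junctions, rose with the CV filter (adjusted p = 0.026 and 0.0395 from limma), but neither passed over all probe sets (adjusted p = 0.0751 and 0.115). Further probe sets of ESAM differed by 1.56 and -0.26 and were not called. The third largest was ECSCR, an endothelial surface protein, at 1.14 (adjusted p = 0.282 over all probe sets from limma). Their median deviation was 0.62 and 0.65 on male arrays 1 and 2, -0.14 on male array 3, and -0.64, 0.16 and -0.73 on the female arrays, and their mean level ranged from 8.96 to 9.87 in males and from 8.55 to 9.36 in females. VWF, the marker with which the study checked the scraping, was at 10.58, 10.90 and 9.68 in males and at 9.27, 11.33 and 9.41 in females. The mast cell median was 1.21, 1.08 and 0.05 in males and -0.12, -0.74 and -0.62 in females, so male arrays 1 and 2 led both groups. By the median, female array 2 was the lowest for the mast cell genes and the third highest for the endothelial genes. The mast cell genes did not share a lowest array, which was female array 1 for FCER1A, 2 for KIT and 3 for MS4A2. Among the females, FCER1A was highest on female array 2 (4.19), as the endothelial median was. The part of endothelial RNA in the values of FCER1A, KIT and MS4A2 was not tested.

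Genes of the interstitial cells that fill the leaflet went the other way, with a higher mean in females at 15 of 16 and a median difference of -0.27, and limma called 0 of them in either test, with 5 at an unadjusted p under 0.05. The largest differences were those of the transcription factor TCF21 (-1.08) and the matrix proteins ASPN (-0.55) and BGN (-0.44). Erythroid genes, which blood left in the tissue would carry, varied little. Their median deviation stayed between -0.06 and 0.05 on all arrays, and the hemoglobin gene HBB was at 9.65 to 10.04. Of 4 platelet genes, PPBP was under the 25th percentile on every array (3.00 to 3.86), and ITGA2B and GP9 were above it on every array. The integrin chain ITGB3, which endothelial cells also make, was higher on every male array (1.20, standard error 0.21, adjusted p = 0.0812 from limma over all probe sets) and was not called in either test. Of 11 muscle genes, 6 were on average higher in males, and limma called 0 at the probe sets used (1 at an unadjusted p under 0.05). PLN, a regulator of the calcium pump, had the largest difference (1.32, adjusted p = 0.158 from limma over all probe sets). A second probe set of PLN rose with the CV filter (1.77, adjusted p = 0.0458 from limma), but not over all probe sets (adjusted p = 0.155). The parts of these cells in the member values were not tested.

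Further genes of the same cell types were read beside the members. Of 26 other myeloid genes, the mean was higher in males at 13 and in females at 13, with a median difference of 0.005 and 0 called by limma in either test, 2 of them at an unadjusted p under 0.05. The lysosomal protease CTSC had the largest difference (0.61, standard error 0.13, adjusted p = 0.118 from limma over all probe sets) and was higher on every male array. At its further probe sets the differences were 0.21, 0.07 and 0.14 and the sexes overlapped. Next were the class II invariant chain CD74 (0.56) and the heme-degrading enzyme HMOX1 (-0.52), neither of which passed. Of 20 other genes of mast cells and IgE receptor signaling, 10 were on average higher in males and 10 in females, with a median of 0.008 and 0 called, 4 of them at an unadjusted p under 0.05. The largest differences were those of the cyclooxygenase PTGS1 (-0.63, adjusted p = 0.274 from limma over all probe sets), the kinase FYN (0.50, adjusted p = 0.188), which acts downstream of the receptor, and the KIT ligand KITLG (0.49, adjusted p = 0.258). The kinase LYN, which phosphorylates the beta and gamma chains, differed by 0.44 (adjusted p = 0.294 from limma). These lists as a whole did not have the male excess of the 3 mast cell genes, and that contrast was not tested.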

How the data were processed

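Deposited log2 expression values of 3 male and 3 female arrays were used as they were. The authors had made them from the scanned arrays with RMA in R 2.12.0, per the labels and methods, and pooled no animals. RMA sets all arrays to 1 distribution, which removes shifts shared by most probe sets. Nothing was renormalized, and raw intensities were not used. Of 24123 probe sets, 124 controls were left out.

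Symbols came from the annotation of the array (1 symbol at 10069 probe sets, several at 198, none at 13732) or the study's list of called genes, of which the fold changes and p values were not used. The members, the further lists and the tests were chosen with earlier results of these data known. Values of all arrays are given for called members, CD163 and CD3E, and, in each class, the 3 genes of highest mean and the 3 of largest difference. For the other lists, called genes and up to 3 of the largest differences are named, all 3 for the myeloid, lymphoid, mast cell, endothelial and interstitial lists. LYN, VWF, KLRK1, IL7R, CTLA4, HBB and the platelet genes were added after their values were seen.

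Sexes were compared with limma 3.58.1 (lmFit, eBayes, statmod 1.5.0, R 4.3.3), male minus female without covariates, two-sided, over all 23999 probe sets and over the 2412 (5 of them controls) within the 10% of highest CV. The methods do not state that share. Their wording on replicates differs from this filter. The share of 10% was taken from earlier work on these data. The number of calls was the same as in the study, which does not show that the same probe sets were called. Calls needed a Benjamini-Hochberg adjusted p under 0.05 and at least 2-fold. Both tests were tested on simulated data. Python 3.11.15 and matplotlib 3.10.9 served for the figures. Alternatives were the prior, array weights, centering, filters, the choice of probe set, the low line, a replicate block and leaving out each array. Nothing in the labels or methods pairs the animals.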

Additional observations from a re-analysis of the deposited data

How the results depend on the processing

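Of the 34 genes, 0 were called over all probe sets (limma, with 4 at an unadjusted p under 0.05) and 1 with the CV filter. Array weights, whose estimate stopped before it converged, gave 1 and 3 (FCER1A, KIT and S100A9), with FCER1A at 2.28 over all probe sets (adjusted p = 0.029 from limma). With 1 array left out, both counts ranged from 0 to 2, and the log2 difference of FCER1A from 1.70 to 2.51. Without male replicate 3, FCER1A and KIT were called in both tests. Without male replicate 1 or female replicate 1, 0 members were called with the CV filter. With names from the annotation only, a setting added after the data were seen that leaves out FCER1A, 0 were called with the CV filter and 1 in place of 2 had separate sexes. Genes with separate sexes ranged from 3 to 13 with 1 array left out (12 without male replicate 3, 13 without female replicate 1 and 5 without female replicate 2). Fewer arrays separate more easily, and the share over all probe sets was not counted with an array left out. These counts are therefore not read as a result about the members. The median difference of the mast cell genes, 1.00, ranged from 0.71 to 1.64, the latter without male replicate 3, and that of the lymphoid genes from -0.10 to 0.31. The 5 lymphoid genes above the low line on all arrays became 1 with the 40th percentile, 0 with the median and 9 by the mean over arrays, and the 2 mast cell genes became 1 with the 40th percentile and 0 with the median. FCER1A was not among the probe sets with a mean above the 25th percentile, so that filter gave no value for it. Over all alternatives its adjusted p from limma ranged from 0.0123 to 0.284 over all probe sets and from 8.47e-05 to 0.0818 with the CV filter. The replicate block left the counts at 0 and 1 (FCER1A adjusted p = 0.0789 and 0.012 from limma), so it changed neither call. Same-numbered arrays deviated together at r = -0.10, 0.01 and 0.27, and other male and female arrays at -0.22 to 0.21. With 3 arrays of each sex these values cannot decide whether the numbers pair animals, which nothing in the labels or methods states. The remaining alternatives kept the direction, apart from the sign of the lymphoid median, and the side of the threshold of these results.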

Other observations

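Further lymphocyte genes, 21 outside the member list, were measured, of which 9 were on average higher in males and 12 in females (median log2 difference -0.02) and 0 were called by limma in either test, with 1 at an unadjusted p under 0.05. That gene was the T cell checkpoint receptor CTLA4, higher on every female array (-0.40, adjusted p = 0.240 from limma over all probe sets) and under the 25th percentile. Female array 1 and male array 2 were the highest for 11 of the 21 (52.4%), against 5.66% of all probe sets. KLRK1, an activating receptor of natural killer and CD8 T cells, was at 3.90, 5.14 and 3.51 in males and at 6.02, 3.49 and 3.97 in females. IL7R, the interleukin 7 receptor of resting T cells, was at 4.97, 5.08 and 4.55 in males and at 6.19, 4.91 and 4.41 in females. Both passed the low line on female array 1 alone.

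JCHAIN, the joining chain of IgA and IgM and a marker of antibody-secreting cells, had the widest spread of these genes. It was at 7.26, 10.30 and 6.22 in males and at 8.16, 6.94 and 6.31 in females, so male array 2 exceeded the next array by more than 2 on the log2 scale, and the difference between the sexes was 0.79 (standard error 1.01, adjusted p = 0.740 from limma over all probe sets). The chemokine receptor CXCR4, found on most leukocytes and on endothelial cells, was at 10.03 and 10.14 on male arrays 1 and 2, just below that on male array 3, and at 10.54, 8.43 and 8.36 in females (0.95, standard error 0.54, adjusted p = 0.427 from limma over all probe sets). Female array 1 thus lay above every male array and the other female arrays below them all. GATA3, a T cell transcription factor that other tissues also use, differed by -0.52 (adjusted p = 0.460 from limma over all probe sets).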
